A study of Mus musculus with 39 samples.

Results

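The 9 genes described here encode secreted mediators of acute inflammation and an enzyme induced with them: the chemokines Cxcl1, Cxcl2, Cxcl3 and Cxcl5, the granulocyte growth factor Csf3, the cytokines Il1a, Il1b and Il6, and the prostaglandin synthase Ptgs2. They are 9 of 18194 genes measured on 39 Affymetrix mouse arrays, and each is represented by the probe set of the platform annotation with the highest mean over all arrays, leaving out probe sets marked as cross-hybridising where another existed. The set was selected on earlier results of these arrays, among them log2 values that were higher on triple Bcat arrays than in normal gland, so every comparison that holds those arrays is given as a description with no test.

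Each array holds total RNA of a mouse tissue sample. The series includes animals with Sleeping Beauty, a transposon system used for insertional mutagenesis. The genotype labels draw on the elements SB, Tg, K5Cre and Bcat. In triple Bcat (SB/Tg/Bcat), which carries no K5Cre, 2 animals gave 3 breast arrays. The masses were 2 breast arrays from 2 Bcat +/- animals, and the ventral tumours were 3 arrays from 1 Bcat +/- animal. The titles of these Bcat +/- samples begin with C57, their genotype label names neither SB, Tg nor K5Cre, and no other group has that genotype. For quadruple (SB/Tg/K5Cre/Bcat) 15 animals gave 19 arrays of breast, and for triple K5Cre (SB/Tg/K5Cre) 8 animals gave 8. Normal mammary gland came from 4 animals, of which 2 were triple K5Cre, 1 quadruple and 1 triple Bcat, so no gland of a wild-type animal was compared, and SB and Tg are shared by the glands, quadruple, triple K5Cre and triple Bcat. In 2 animals, T627 and T635, a triple K5Cre breast array and a normal gland array came from the same mouse. The tissue label of the quadruple and triple samples is breast, with no word on whether a tumour was taken. The labels do not say what drives Cre beyond the name K5Cre, and give no age.

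Cxcl1, Cxcl2, Cxcl3 and Cxcl5 are chemokines with a Glu-Leu-Arg motif that draw neutrophils out of blood through the receptor Cxcr2, and Csf3 drives the production and release of neutrophils from bone marrow. Il1a and Il1b act through a shared receptor to induce many of these genes in epithelium and stroma, Il6 signals through Il6ra and Il6st, and Ptgs2 makes the precursor of prostaglandin E2. In skin and mammary epithelium, wounding, infection and neoplasia are known settings of their induction, largely through the transcription factor NF-kappaB and through stabilised mRNAs.

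The 4 chemokine genes lie in 1 cluster on chromosome 5 (GRCm38.p6), in the order Cxcl5, Ppbp, Pf4, Cxcl3, Cxcl15, Cxcl1 and Cxcl2, with 144.601 kb between the starts of the outermost genes. Il6 lies elsewhere on chromosome 5, Csf3 on chromosome 11, Il1a and Il1b on chromosome 2 and Ptgs2 on chromosome 1. Promoters of 7 of the 9 genes were found in a RefSeq table of GRCm38.p6 that holds 250 bases before to 50 bases after each gene start. Those of Cxcl5 and Csf3 were not in it. A match to the NF-kappaB consensus, searched on both strands, occurred in 4 of the 7, against 8.46% of 32851 promoters in the table. The AP-1 motif TGANTCA, which reads the same on both strands, matched in 2 of the 7, Il1a and Il6, against 7.81% of all promoters. The 110 bases just before the gene start are shown for the 4 genes with an NF-kappaB match so that the matched bases can be read in place. All are on the plus strand, 5′ to 3′, and capitals mark the match.
Cxcl1 (chr5:90891135-90891244): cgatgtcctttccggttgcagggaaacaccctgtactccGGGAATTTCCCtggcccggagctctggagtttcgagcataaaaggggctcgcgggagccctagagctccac
Cxcl2 (chr5:90903789-90903898): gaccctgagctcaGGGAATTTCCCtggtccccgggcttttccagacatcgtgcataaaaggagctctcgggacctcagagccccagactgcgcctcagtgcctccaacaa
Cxcl3 (chr5:90785991-90786100): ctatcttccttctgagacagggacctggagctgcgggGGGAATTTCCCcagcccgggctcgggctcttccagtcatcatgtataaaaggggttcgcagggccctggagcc
Il6 (chr5:30013004-30013113): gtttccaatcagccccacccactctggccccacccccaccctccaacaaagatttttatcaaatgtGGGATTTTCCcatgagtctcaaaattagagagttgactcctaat
The match GGGAATTTCCC was identical in Cxcl1, Cxcl2 and Cxcl3 and began at -71 in Cxcl1, -97 in Cxcl2 and -73 in Cxcl3, counted from the gene start, while Il6 held GGGATTTTCC at -44. No match within the window of Il1a, Il1b or Ptgs2 says only that these letters were not there, and a match is not a measured binding site.

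Over all genes, the median of the mean log2 value was 6.72 and the 25th percentile 4.42, so Il6 in normal gland, at 2.88 ± 0.32, was among low values that could not be told from background. Array medians lay between 5.10 and 5.27. Normal gland stood apart in fat, with a mean Adipoq of 13.84, against 6.70 in triple Bcat, 4.77 in masses, 5.29 in ventral tumours, 7.05 in quadruple and 7.23 in triple K5Cre. It also stood apart in skeletal muscle, with a mean over 8 markers of 4.51 in triple Bcat, 4.99 in masses, 7.71 in ventral tumours, 6.14 in quadruple and 5.27 in triple K5Cre, against 12.17 in normal gland. Epithelium was present throughout, with Epcam between 8.13 and 13.30 on the 39 arrays. Krt5, the basal keratin, was 5.74 on triple K5Cre array 2, where the other arrays of its group had 9.98 to 12.35. Xist was under 8 on 3 arrays, quadruple 5, triple K5Cre 2 and normal gland 3, and at 10.77 or more on the rest. The quadruple arrays 1 and 12, from animal Q190, correlated at 0.9964 over all genes, against a highest r of 0.988 among 200 pairs of arrays from different animals of 1 group. Arrays of an animal were treated as a block in the fits. Group means, SDs and correlations over arrays count each array by itself. All samples are bulk tissue, in which fewer cells of a type and less RNA per cell cannot be told apart.

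The mean log2 value over the 9 genes was highest in triple Bcat, at 9.66 ± 0.56 (SD, n = 3), followed by 8.51 ± 0.40 in masses (n = 2), 8.49 ± 0.43 in ventral tumours (n = 3), 6.72 ± 1.86 in quadruple (n = 19), 6.71 ± 1.21 in triple K5Cre (n = 8) and 4.81 ± 0.57 in normal gland (n = 4). The means of masses and ventral tumours were close, and so were those of quadruple and triple K5Cre. The SD of the ventral tumours is the spread within 1 animal, and that of triple Bcat covers 2 animals. Gland 1, from the triple Bcat animal Tbc-139, had the highest mean of the glands, 5.58, where the others had 4.22 to 4.80. It was the highest gland for every gene of the 9 but Cxcl1 and Csf3. For those genes a count of arrays above every gland is set by gland 1. Quadruple was the widest group: its arrays ran from 4.14 to 10.48 with a median of 6.83, so its lowest array lay under every gland and its highest above every triple Bcat array.

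**Figure D1:**
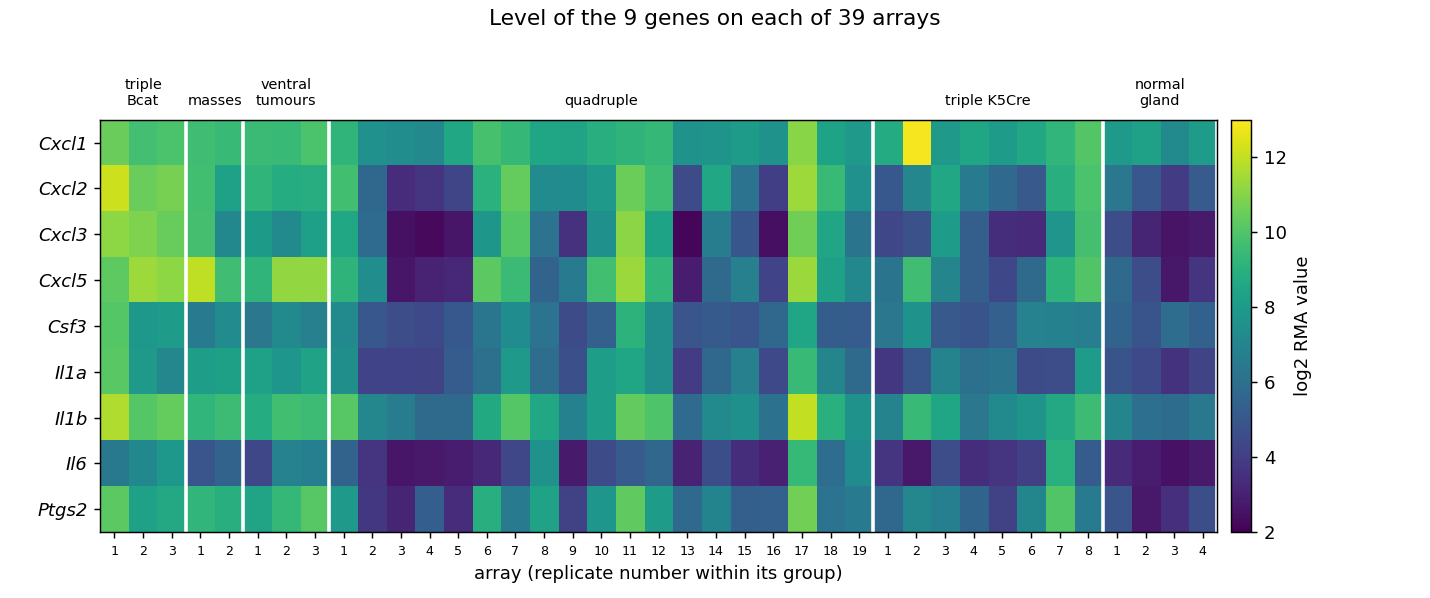
Log2 RMA value (colour) of the 9 genes (rows) on each of the 39 arrays (columns, by group and replicate number). The triple Bcat, masses and ventral tumour arrays are bright in most rows, the 4 normal glands are dark outside Cxcl1, and the quadruple arrays range from the darkest, array 3 with a mean of 4.14, to the brightest, array 17 with a mean of 10.48.

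Among the chemokines, Cxcl3, another Cxcr2 ligand, had the largest fitted difference between triple Bcat and normal gland. Its log2 values were 11.14, 10.87 and 10.45 on the triple Bcat arrays, against 4.61, 3.14, 2.56 and 2.79 in the glands. The fitted difference was 7.70 (SE 1.94), or 207-fold, as a description. The gland mean of 3.28 lay under the 25th percentile of all genes, 4.42, so this fold size rests on a low value. The masses had 9.74 and 7.12 and the ventral tumours 8.01, 7.21 and 8.22, so both lay above every gland and below every triple Bcat array. Quadruple arrays had a lowest value of 2.17, a median of 6.25 and a highest of 11.07, and triple K5Cre arrays 3.33, 5.02 and 9.75. Both groups thus overlapped the glands, with 13 of 19 quadruple and 5 of 8 triple K5Cre arrays above every gland.

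Cxcl2, the neighbour of Cxcl1 in the cluster and a ligand of the same receptor, followed Cxcl3 closely. Its log2 values were 12.18, 10.50 and 10.74 in triple Bcat, 9.65 and 8.28 in masses and 9.19, 8.79 and 8.84 in ventral tumours, against 6.36, 4.97, 3.96 and 5.15 in normal gland. Every array of those 3 groups was above every gland. The lowest, median and highest values were 3.39, 7.57 and 11.39 in quadruple, and 5.04, 6.79 and 9.88 in triple K5Cre. Between the lowest and the highest quadruple array this is a 255-fold range, with 12 of 19 arrays above every gland.

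Cxcl5, which epithelial cells are known to make, was 11.95 and 9.63 in the masses and 9.21, 11.23 and 11.21 in the ventral tumours, close to the 10.28, 11.41 and 11.12 of triple Bcat. The glands had 5.81, 4.59, 2.72 and 3.66. No array of these 3 groups overlapped the glands, and the order of the groups themselves was not resolved, with means of 10.94 ± 0.59 in triple Bcat, 10.79 ± 1.64 in masses and 10.55 ± 1.16 in ventral tumours. Quadruple spanned 2.67 to 11.35 around a median of 7.13, and triple K5Cre spanned 4.39 to 10.03 around 6.62.

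Cxcl1, a ligand of Cxcr2 known for its induction in epithelium, was already at 7.89 ± 0.45 in normal gland and had smaller differences than its neighbours. Its values were 10.50, 9.72 and 9.87 in triple Bcat, 9.64 and 9.46 in masses and 9.51, 9.40 and 9.88 in ventral tumours, against 7.91, 8.30, 7.26 and 8.10 in normal gland. Again every array of the 3 groups was above every gland. In quadruple the lowest, median and highest values were 7.17, 8.43 and 11.04. Triple K5Cre had 7.96, 8.67 and 12.87, and the highest of these, array 2, was the highest Cxcl1 value of all 39 arrays. All 3 Cxcl1 probe sets were highest on that array, at 12.87, 12.54 and 10.83, against 11.04, 10.77 and 9.19 on the next array of each. Cxcl2 and Cxcl3 were 7.08 and 4.74 there, inside the range of their group. The same array had the low Krt5 and Xist values given above, and their part in the Cxcl1 value was not tested.

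Csf3, the growth factor of the neutrophil lineage, was 10.08, 7.85 and 8.08 in triple Bcat, 6.57 and 7.32 in masses and 6.38, 7.22 and 6.78 in ventral tumours, against 5.51, 4.84, 5.94 and 5.40 in normal gland. The triple Bcat arrays lay above the masses and ventral tumours, and those above the glands. Only 7 of 19 quadruple arrays exceeded every gland, the fewest for any of the 9 genes, although quadruple arrays 11 and 17 reached 9.10 and 8.49. The lowest quadruple value was 4.42 and the median 5.25. In triple K5Cre the values ran from 4.84 to 7.61 with a median of 6.54.

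The Il1 genes differed in how triple Bcat stood to the masses and ventral tumours. Il1b, the form secreted mainly by myeloid cells, was 11.71, 10.09 and 10.40 in triple Bcat, 9.24 and 9.53 in masses and 8.81, 9.69 and 9.54 in ventral tumours, against 6.99, 6.0, 5.91 and 6.41 in normal gland. Il1a, an alarmin also held in keratinocytes, was 10.17, 7.92 and 7.09 in triple Bcat, 8.16 and 8.27 in masses and 8.29, 7.76 and 8.32 in ventral tumours, against 4.84, 4.44, 3.60 and 4.25 in normal gland. For Il1a the triple Bcat arrays spread around those of the masses and ventral tumours, whereas for Il1b all 3 triple Bcat arrays were above them. In quadruple, Il1b had a lowest, median and highest value of 5.79, 7.64 and 11.97 and Il1a of 3.96, 5.93 and 9.46. In triple K5Cre, Il1b had 6.35, 8.08 and 9.54 and Il1a 3.77, 5.51 and 8.07. For each of the 2 genes 13 of 19 quadruple arrays lay above every gland.

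Il6 was low on most arrays and high on a few. It was 6.43, 7.12 and 7.86 in triple Bcat, 4.91 and 5.51 in masses and 4.36, 6.88 and 6.75 in ventral tumours, against 3.31, 2.88, 2.54 and 2.78 in normal gland. Among quadruple arrays the lowest, median and highest were 2.68, 4.36 and 9.38, the last on array 17. Triple K5Cre array 7 had 9.0, where the other 7 arrays of its group had 2.77 to 5.22. Arrays high in the chemokines were not always high in Il6: quadruple array 11 had 11.07 for Cxcl3 and 5.17 for Il6, while quadruple array 8, the array lowest in Epcam, had 6.19 for Cxcl3 and 7.65 for Il6.

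Ptgs2, the inducible cyclooxygenase, was 10.24, 8.31 and 8.63 in triple Bcat, 9.22 and 8.90 in masses and 8.42, 9.31 and 10.16 in ventral tumours, against 4.88, 2.74, 3.51 and 4.65 in normal gland. The 3 groups had means of 9.06 ± 1.04 in triple Bcat, 9.06 ± 0.23 in masses and 9.30 ± 0.87 in ventral tumours, and none overlapped the glands. In quadruple the values ran from 3.12 to 10.66 around a median of 6.53, and 15 of 19 arrays were above every gland, the most for any of the 9 genes. In triple K5Cre they ran from 4.18 to 10.02 around 6.66, with 7 of 8 arrays above every gland. A second Ptgs2 probe set was dimmer, with a mean of 4.03, and correlated with the one used at r = 0.83 over the 39 arrays. Its differences were smaller, with means of 5.05 in masses and 3.00 in normal gland. In quadruple its median was 3.39, against a highest gland value of 3.24. The counts above are those of the brighter probe set.

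**Figure D2:**
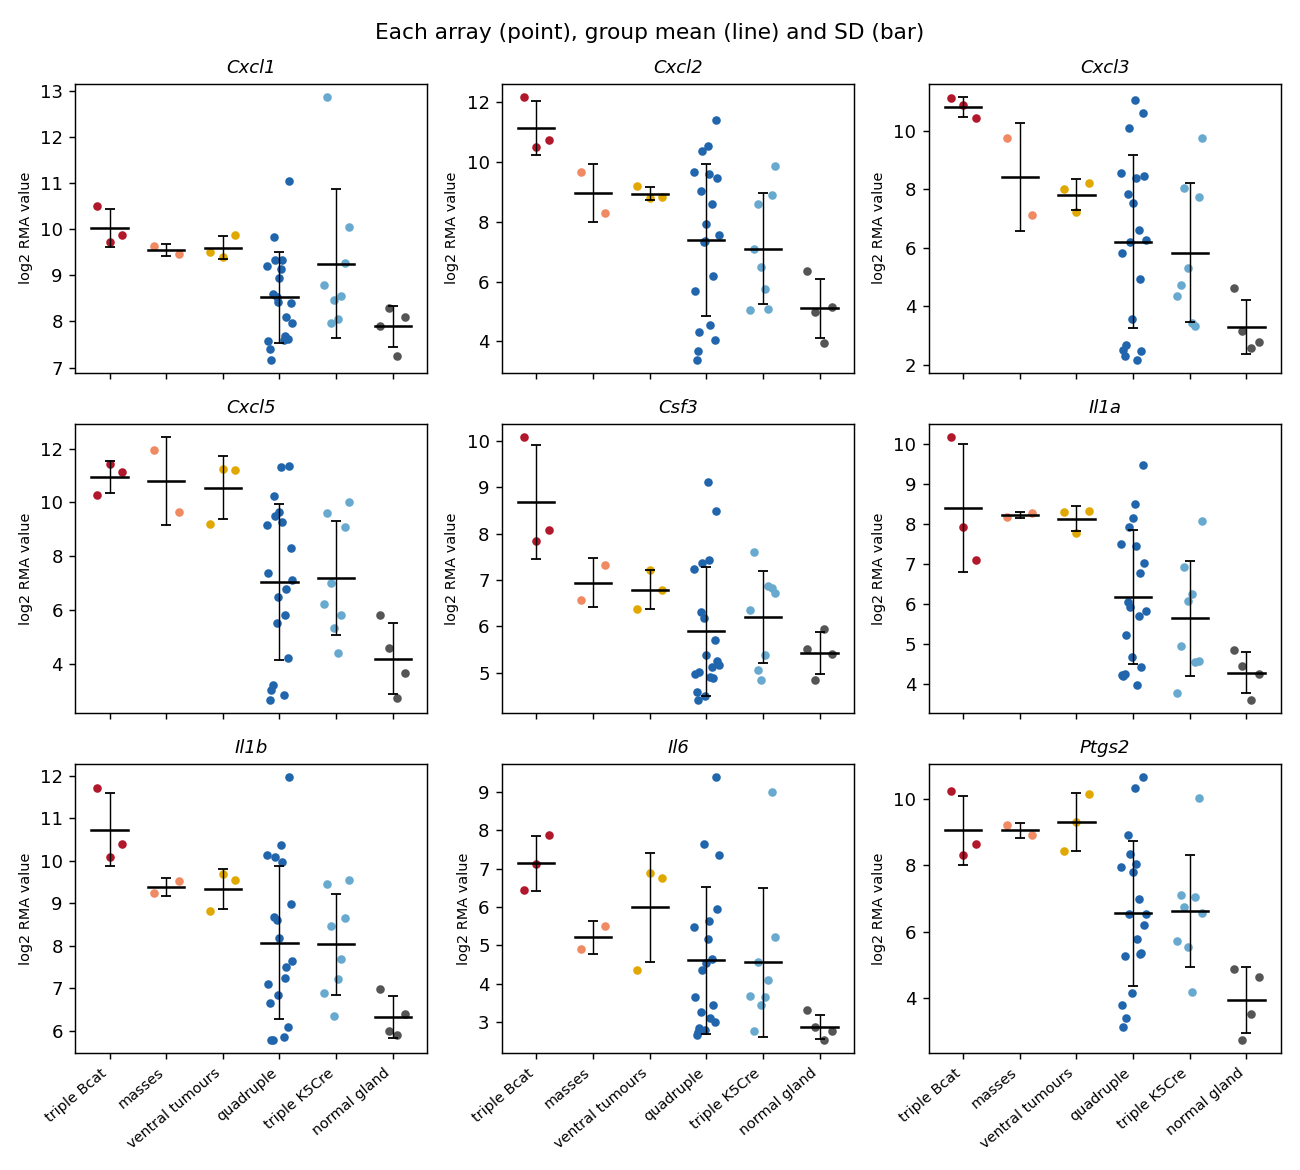
Log2 RMA value of each of the 9 genes by group, with a point for each array, a line at the group mean and a bar for its SD. Triple Bcat, masses and ventral tumours lie above all 4 normal glands in every panel, quadruple and triple K5Cre overlap the glands in every panel, and single triple K5Cre arrays stand apart for Cxcl1 (12.87) and Il6 (9.0).

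Taking all arrays of a group, each of the 9 genes was above every gland on every triple Bcat array, on every mass and on every ventral tumour. Over all genes that was so for 12.4% in triple Bcat, 22.2% in masses and 16.8% in ventral tumours, shares that rest on 3, 2 and 3 arrays against 4. For triple Bcat this separation is what brought the genes to notice and supports nothing further. In quadruple 0 of the 9 genes were above every gland on all 19 arrays, where 0.654% of all genes were, and in triple K5Cre 0 of 9, against 4.82% of all genes. No gene of the 9 separated triple Bcat from all quadruple arrays, which 0.0879% of all genes did, since for each gene at least 2 quadruple arrays reached the lowest triple Bcat value. As a description, the median fitted difference of the 9 genes was 4.67 log2 for triple Bcat against normal gland, with a median over all genes of -0.01, and 2.80 for triple Bcat against quadruple, with -0.02 over all genes.

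The comparisons with normal gland were tested in a limma fit over all genes and arrays, with the animal as a random block and p-values adjusted over the 18194 genes by the Benjamini-Hochberg method. They share the same 4 glands, which were also the lower side of the contrast in which the 9 genes were first seen to stand out, so they are not independent of the choice of genes.

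In the masses, Cxcl5, Ptgs2 and Il1a rose relative to normal gland. The fitted log2 difference was 6.83 for Cxcl5 (SE 2.05, adjusted p = 0.0355), or 114-fold, 5.16 for Ptgs2 (SE 1.57, adjusted p = 0.0378), or 35.9-fold, and 4.0 for Il1a (SE 1.24, adjusted p = 0.0425), or 16-fold. These are 3 of the 9 genes, where 7.28% of all genes passed in either direction and 2.6% passed upward. The gland mean of each of the 3 lay under the 25th percentile of all genes, 4.42, so these fold sizes rest on low values. The second, dimmer Ptgs2 probe set differed less, with means of 5.05 in masses and 3.0 in normal gland. The other 6 genes had fitted differences of 5.28 (Cxcl3), 4.0 (Cxcl2), 3.22 (Il1b), 2.19 (Il6), 1.87 (Cxcl1) and 1.53 (Csf3), with adjusted p from 0.106 to 0.415. The 3 calls were weakly held: none passed without mass 1, mass 2, gland 2 or gland 3, or without the 3 arrays low in Xist, and only Ptgs2 passed without gland 4 or with animal means. When the masses and glands were fitted alone all 9 passed, and with array weights 7 did. Over all genes, 3682 passed in the former and 4226 in the latter, against 1324 in the fit first described.

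In the ventral tumours, 0 of the 9 genes passed, where 4.03% of all genes did in either direction and 0.813% upward. Ptgs2 came nearest, with a fitted difference of 5.40 (SE 1.62, adjusted p = 0.0507). An unadjusted p under 0.05 was found for 6 of the 9 genes and for 3407 of all 18194. The median difference of the 9 was 3.91, near the 4.0 of the masses, with a median over all genes of -0.01. The 3 arrays come from 1 animal, so the spread between animals in this test is that of the other groups, and here the animal and the condition cannot be told apart. Treating them as independent gave 3 calls (Cxcl5, Il1a and Ptgs2) and cyclic loess gave 1 (Ptgs2). Array weights and a fit of the compared groups alone gave 8 each. Over all genes these fits called 2009, 921, 5717 and 2597, in that order, against 734 in the fit first described.

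In quadruple, 0 of the 9 genes passed against normal gland, where 15.4% of all genes did in either direction and 5.7% upward. The fitted differences ran from 0.50 for Csf3 to 3.00 for Cxcl5, with a median of 1.90, against a median of 0.01 over all genes. Adjusted p ran from 0.0735 for Ptgs2 to 0.661 for Csf3. An unadjusted p under 0.05 was found for 6 of the 9 genes and for 5062 of all 18194. The 95% interval of the Ptgs2 difference was 0.57 to 4.62 and that of Cxcl5 0.35 to 5.64. Leaving out quadruple 2, 3, 5 or 9 let Ptgs2 pass, and array weights, which downweight arrays far from their group, let 7 genes pass. Array weights raised the count over all genes as well, from 2794 to 6749. Other omissions raised the adjusted p: that of Ptgs2 was 0.222 without gland 2 and that of Cxcl5 was 0.388 without gland 3. The Cxcl1 difference was 0.82 with all arrays and 0.25 without gland 3.

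Triple K5Cre also had 0 of 9 genes past the threshold against normal gland, with 17.2% of all genes past it in either direction and 7.44% upward. The differences ran from 0.78 for Csf3 to 3.33 for Cxcl5 (SE 1.35, adjusted p = 0.0855), with a median of 1.90. Cxcl1 differed by 1.60 (SE 0.60, adjusted p = 0.0621) and Ptgs2 by 2.71 (SE 1.03, adjusted p = 0.0655). Of the 9 genes, 4 had an unadjusted p under 0.05, as did 5368 of all 18194 genes. Without triple K5Cre array 3, Cxcl1 passed, without array 5 Cxcl1 and Ptgs2 passed, and with array weights 7 genes did. Array weights raised the count over all genes as well, from 3134 to 6366. Other omissions gave a smaller Cxcl1 difference: it was 0.75 (adjusted p = 0.316) without array 2, where Cxcl1 was 12.87, 0.98 (adjusted p = 0.395) without gland 3, and 0.52 (adjusted p = 0.605) without the 3 arrays low in Xist. Within the 2 animals with both tissues, the 9-gene mean was 7.35 in breast and 4.22 in gland of T627, and 7.04 in breast and 4.80 in gland of T635. In T635 Cxcl1 (7.96 in breast, 8.10 in gland) and Csf3 (5.07 and 5.40) were lower in breast. The other genes, and all 9 in T627, were higher in breast. The T627 pair is triple K5Cre array 2 and gland 3, both low in Xist.

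**Figure D3:**
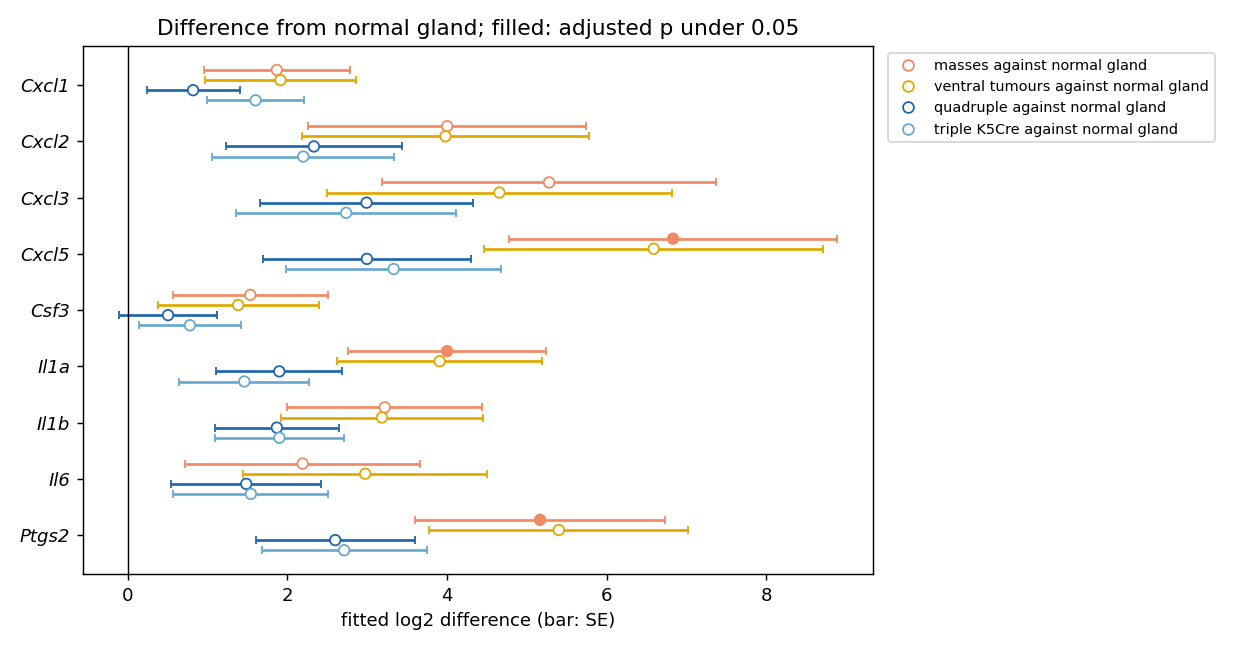
Fitted log2 difference (x axis) from normal gland of the 9 genes (y axis) in masses, ventral tumours, quadruple and triple K5Cre, with bars for the SE and filled points where the adjusted p was under 0.05. All points lie right of 0, the filled ones are Cxcl5 (6.83), Il1a (4.0) and Ptgs2 (5.16) in masses, and all 4 comparisons use the same 4 glands.

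Quadruple and triple K5Cre, which differ by the Bcat element, gave 0 calls among the 9 genes and 0 among all 18194, a share of 0%, in limma. Unadjusted, 0 of the 9 and 811 of all genes had a p under 0.05. The differences ran from -0.78 for Cxcl1 (95% interval -1.71 to 0.14) to 0.44 for Il1a (-0.81 to 1.69), with a median of -0.06. For Cxcl3 the interval ran from -1.85 to 2.36 and for Cxcl5 from -2.41 to 1.73, so a difference of 1.73 log2 in either direction lay within both.

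The wider pathway was described from lists chosen with earlier results known. Of all genes tested, 2.6% rose in masses, 0.813% in ventral tumours, 5.7% in quadruple and 7.44% in triple K5Cre. The shares that fell were 4.68% in masses, 3.22% in ventral tumours, 9.66% in quadruple and 9.79% in triple K5Cre. Of 27 other chemokine and cytokine ligands, 2 rose and 0 fell in masses: Il24, a cytokine of the Il10 family, by 4.58 (SE 1.32, adjusted p = 0.0282), and Ccl20, the ligand of Ccr6, by 3.67 (SE 0.76, adjusted p = 0.00259). In ventral tumours 0 passed, with values of 4.16 for Il24 and 2.46 for Ccl20, and in triple K5Cre 0 passed. In quadruple 0 rose and 1 fell: Cxcl15, a chemokine of mouse lung epithelium that lies inside the chromosome 5 cluster, fell by 3.65 (SE 1.15, adjusted p = 0.0255). Cxcl15 averaged 6.03 ± 2.43 in triple Bcat, 3.63 ± 0.47 in masses, 3.10 ± 0.07 in ventral tumours, 4.64 ± 1.71 in quadruple and 6.16 ± 3.19 in triple K5Cre, against 8.27 ± 2.63 in normal gland. Its r with the 9-gene mean over 39 arrays was -0.27. Ppbp and Pf4, platelet chemokines of the same cluster, had r = 0.76 and 0.41. The 9-gene mean itself holds 4 genes of this cluster, and the values are a description only.

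Among 18 receptors and signal transducers, Cxcr2 rose by 2.49 in masses (SE 0.71, adjusted p = 0.0262) and passed in the 1 animal with ventral tumours, where the difference was 3.00 (SE 0.73, adjusted p = 0.0159, with the spread between animals taken from other groups). Its mean level was 8.35 ± 0.13 in triple Bcat, 8.05 ± 0.21 in masses, 8.57 ± 0.40 in ventral tumours, 6.46 ± 1.00 in quadruple and 6.18 ± 0.84 in triple K5Cre, against 5.72 ± 0.19 in normal gland. Il1rap, the accessory chain of the Il1 receptor, rose by 2.11 in masses (adjusted p = 0.0151), by 1.39 in quadruple (adjusted p = 0.00487) and by 1.47 in triple K5Cre (adjusted p = 0.00376). Ptger3, a prostaglandin E2 receptor, fell by 3.17 in masses (adjusted p = 0.0335), fell by 3.97 in quadruple (adjusted p = 1.36e-05) and fell by 4.34 in triple K5Cre (adjusted p = 5.62e-06). Ackr1, which binds chemokines on venules, fell by 1.69 in quadruple (adjusted p = 0.00247) and fell by 2.11 in triple K5Cre (adjusted p = 0.000285). Over the list, 2 genes rose and 1 fell in masses, 1 rose and 0 fell in ventral tumours, 1 rose and 3 fell in quadruple, and 1 rose and 4 fell in triple K5Cre. Over all genes tested, 2.6% rose and 4.68% fell in masses, and 0.813% rose and 3.22% fell in ventral tumours. In quadruple 5.7% rose and 9.66% fell, and in triple K5Cre 7.44% rose and 9.79% fell. The counts of receptors that rose or fell are read against these shares. The adipocyte markers, all 6 of which fell in quadruple and in triple K5Cre and 5 of which fell in masses, moved with the falls of Ptger3 and Ackr1. Their mean was 5.98 in masses, 7.08 in quadruple and 7.0 in triple K5Cre, against 12.52 in normal gland. Skeletal muscle markers moved with these falls too: 7 of 8 fell in masses, 8 of 8 in quadruple and 8 of 8 in triple K5Cre. Of 7 endothelial markers, 0 fell in masses, 0 in ventral tumours, 4 in quadruple and 1 in triple K5Cre. Their mean was 7.21 in masses, 7.88 in ventral tumours, 6.63 in quadruple and 6.69 in triple K5Cre, against 7.58 in normal gland. Tek, a receptor of endothelial cells, fell by 2.03 in quadruple and fell by 2.41 in triple K5Cre. The part of fat, muscle or vessels in the falls was not tested.

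Of 14 inhibitors and feedback genes, Il1rn, the secreted antagonist of the Il1 receptor, was the only gene that passed in masses, by 3.86 (SE 1.23, adjusted p = 0.048), and in quadruple, by 2.24 (SE 0.78, adjusted p = 0.0464). None passed in ventral tumours or triple K5Cre. Over all genes, 2.6% rose in masses, 0.813% in ventral tumours, 5.7% in quadruple and 7.44% in triple K5Cre. In quadruple 9.66% of all genes fell, and in triple K5Cre 9.79%. The level of Il1rn was 9.58 ± 0.84 in triple Bcat, 9.15 ± 0.21 in masses, 8.90 ± 0.13 in ventral tumours, 7.64 ± 1.78 in quadruple and 7.41 ± 1.25 in triple K5Cre, against 5.38 ± 1.10 in normal gland. Of 9 other prostaglandin genes 0 rose in any of the 4 comparisons with normal gland. Ptgis, prostacyclin synthase, fell by 1.20 in quadruple (adjusted p = 0.026) and fell by 1.22 in triple K5Cre (adjusted p = 0.0276), where Hpgd, which degrades prostaglandins, also fell by 2.04 (adjusted p = 0.0324). Of 18 inducible inflammatory targets 0 passed in any of these 4 comparisons, and the nearest in masses were Trem1 at 1.69 (adjusted p = 0.0919) and Clec4e at 3.46 (adjusted p = 0.103).

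In triple Bcat against normal gland, as a description, 25 of the 27 ligands had a higher fitted mean, led by Il1f9 (Il36g) at 4.78, Il1f6 (Il36a) at 4.41 and Ppbp at 4.25. The median fitted difference was 1.55 over the ligands and -0.01 over all genes. Among receptors the largest differences were 3.42 for Csf3r, the receptor of Csf3, 3.33 for Il1r2, a decoy receptor of Il1, and 2.77 for Cxcr2. Il1rn was 4.39 higher, and Mmp13, a collagenase, and Saa3, an acute-phase protein, were 5.65 and 5.24 higher.

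Most neutrophil markers moved with the 9 genes. The mean over 12 measured markers was 8.66 in triple Bcat, 9.03 in masses, 9.09 in ventral tumours, 6.96 in quadruple and 6.70 in triple K5Cre, against 5.80 in normal gland. Of the 12, 10 had a higher fitted mean than normal gland in triple Bcat, masses, ventral tumours and quadruple, and 9 in triple K5Cre. The median fitted difference over all genes lay between -0.01 and 0.02 in these comparisons. Ltf, lactoferrin, which milk-producing epithelium also makes, averaged 10.77 in triple Bcat, 11.46 in masses, 9.29 in ventral tumours, 11.13 in quadruple and 11.49 in triple K5Cre, against 12.38 in normal gland. Elane, neutrophil elastase, was at 4.11 in triple Bcat, 4.11 in masses, 4.2 in ventral tumours, 4.14 in quadruple and 4.28 in triple K5Cre, against 4.31 in normal gland. S100a8, the abundant calprotectin subunit that keratinocytes can also make, averaged 14.05 in triple Bcat, 13.79 in masses and 13.84 in ventral tumours, against 8.71 in normal gland. Gland 1 had 11.22 for S100a8, where the other glands had 7.40 to 8.39. In masses 4 of 12 rose, led by Stfa2l1 at 6.73 (adjusted p = 0.0389) and Mmp8, the neutrophil collagenase, at 4.12 (adjusted p = 0.00265). In the 1 animal with ventral tumours 3 passed, led by Ngp at 4.88 and Mmp8 at 4.53 (adjusted p = 0.00253 each, with the spread between animals taken from other groups). In quadruple 0 passed, and in triple K5Cre 1 did, Padi4, at 2.06 (adjusted p = 0.00217). Of all genes tested, 2.6% passed upward in masses, 0.813% in ventral tumours, 5.7% in quadruple and 7.44% in triple K5Cre. Whether the 9 genes come from neutrophils, from epithelium or from other cells was not tested.

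Across the 39 arrays the 9-gene mean correlated with the neutrophil mean at r = 0.90 and with the mean of 10 squamous and wound markers at 0.77. It correlated with macrophage markers at 0.43, with fibroblast markers at 0.44 and with adipocyte markers at -0.39. The r was -0.52 for simple and luminal epithelial, 0.12 for basal epithelial and 0.34 for endothelial markers. For T cell, B cell and skeletal muscle markers it was 0.12, 0.10 and -0.23. Over the 15 quadruple animals, each as the mean of its arrays, r was 0.93 for neutrophil, 0.88 for squamous and 0.47 for macrophage markers. Fibroblast, adipocyte, simple and luminal, basal and endothelial markers had 0.55, -0.05, -0.48, 0.42 and 0.44. T cell, B cell and skeletal muscle markers had 0.10, 0.29 and -0.03. The arrays share their normalisation and tissue composition. The lowest quadruple arrays, 3, 4, 5, 13 and 16, had 9-gene means of 4.14, 4.30, 4.57, 4.53 and 4.77, with neutrophil means of 5.30, 5.10, 5.14, 5.25 and 5.04 and squamous means of 4.51, 6.25, 4.82, 6.75 and 4.86. The highest, 17 and 11, had 10.48 and 9.5, with neutrophil means of 8.45 and 8.49 and squamous means of 12.98 and 11.87. Some arrays departed from the squamous relation: triple K5Cre array 2 had a 9-gene mean of 7.35 and a squamous mean of 4.46, and triple K5Cre array 7 had 8.23 and 7.70. Quadruple array 8 had 7.14, with a squamous mean of 8.25 and a neutrophil mean of 6.40. Quadruple array 15 and triple K5Cre arrays 4 and 5 had 9-gene means of 5.99, 5.76 and 5.36. Their squamous means were 11.86, 10.88 and 11.02 and their neutrophil means 7.57, 6.80 and 6.56. Cxcr2 was at 5.80, 5.50 and 5.30 on them, against 5.50 to 5.94 in normal gland.

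**Figure D4:**
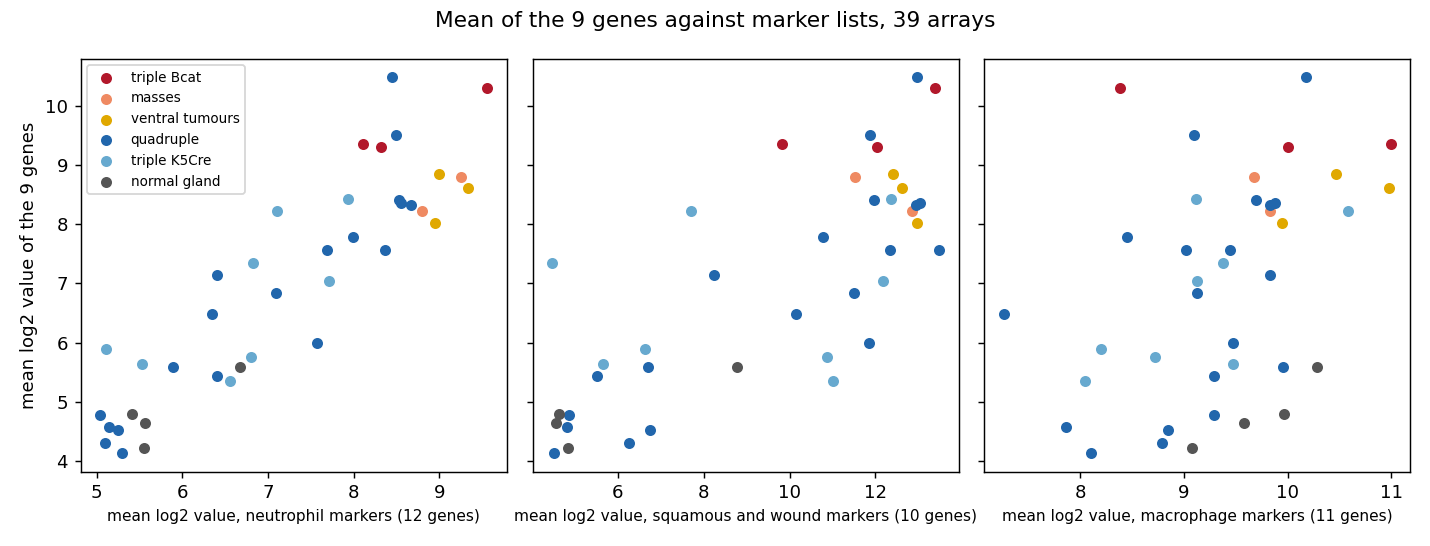
Mean log2 value of the 9 genes (y axis) against the mean log2 value of 12 neutrophil, 10 squamous and wound, and 11 macrophage markers (x axes), with a point for each of 39 arrays coloured by group. The points rise together in the neutrophil panel (r = 0.90) and the squamous panel (r = 0.77) and scatter more in the macrophage panel (r = 0.43).

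Among themselves the 9 genes correlated with a median r of 0.76 over 36 gene pairs and 39 arrays, between 0.42 for Cxcl1 with Il6 and 0.96 for Cxcl2 with Cxcl3. Over the 19 quadruple arrays the median was 0.80. The genes most like the 9-gene mean over 39 arrays were Clec4e (r = 0.95), Il1rn (0.95), Acod1 (0.94), Trem1 (0.94), Mmp13 (0.93), Csf3r (0.93), Mefv (0.93) and Mcemp1 (0.92). Outside triple Bcat, over 36 arrays, Il1rn, Clec4e, Trem1, Mefv, Acod1 and Mmp13 were again among the 8 nearest, joined by Hbegf (0.93) and Upp1 (0.92).

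Arrays from the same animal were not always alike. The 3 arrays of quadruple animal Q648, numbers 8, 9 and 10, had 9-gene means of 7.14, 5.43 and 7.57 and correlated over all genes at only 0.89 to 0.90. Between arrays 8 and 9 Il6 differed by 4.85, and between arrays 8 and 10 Cxcl5 differed by 4.13. The arrays of Q2154, numbers 18 and 19, had 7.56 and 6.83 and differed most in Cxcl3, by 2.21. In triple Bcat animal Tbc-266 the 2 arrays had 9.31 and 9.36, with a largest difference of 0.82 for Il1a.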

How the data were processed

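RNA of 39 mouse tissue samples was biotin-labelled for Affymetrix arrays, per the labels. The deposited values are log2 expression of 45101 probe sets, made with RMA per the submitters' processing notes, with no version stated in the labels. RMA removes background and equalises arrays, and low log2 values could not be told from background. Array number and signal limit the precision. Of the probe sets, 34958 had 1 gene in the platform annotation, 932 several and 9211 none, and 204 kept an old symbol, which left 18194 genes. Of the listed genes, 173 of 189 were measured, and the rest were not used here.

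The 9 genes, the lists and the rule for named genes were chosen with earlier results of these data known. The rule names all 9 genes in every group. For each list it names up to 2 rises and 2 falls among called genes, or the 2 smallest p where none passed, or up to 3 largest differences where triple Bcat is compared. It also names the 8 genes most correlated with the 9-gene mean.

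A limma model over all arrays had a coefficient for each group, the animal (from the titles) as a random block (consensus correlation 0.329) and eBayes with an intensity trend. Calls are at a Benjamini-Hochberg adjusted p under 0.05. Because of the block, a fitted difference need not equal the difference of printed means. The fit was tested on simulated data. Alternatives were no block, animal means, compared groups only, no low genes, cyclic loess, array weights, all probe sets of a gene, no trend, a paired fit and leaving out arrays. The fits without low-Xist arrays, without the quadruple array lowest in Epcam, or without each quadruple or triple K5Cre array were chosen after seeing the data. R 4.3.3, limma 3.58.1, Python 3.11.15, pandas 2.3.3, numpy 2.4.6 and scipy 1.17.1 were used.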

Additional observations from a re-analysis of the deposited data

Results flagged for a closer look

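Within the groups of 4 to 10 arrays, each gene and the 9-gene mean were searched for an array far from the rest of its group, by Dixon's criterion at the 95% level. This marked 2 of 20 cases, where chance marks about 1 in 20. Cxcl1 was 12.87 on triple K5Cre array 2, and the nearest other array of the group had 10.05. Il6 was 9.0 on triple K5Cre array 7, and the nearest other array had 5.22; Ptgs2 was 10.02 on the same array, the highest of its group. What sets these arrays apart was not tested.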

How the results depend on the processing

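The calls depended on how the spread was estimated. In quadruple against normal gland the count of the 9 genes called was 0, with 7 under array weights and 0 to 1 when single arrays were left out. In triple K5Cre against normal gland it was 0, with 7 under array weights and 0 to 2 when single arrays were left out. Leaving out the genes with the lowest means also removed Il6. Of the 8 genes left, 1 then passed, Cxcl1, as did 2857 of all genes kept. In masses the count of the 9 genes called was 3, with 1 for animal means, 9 for the compared groups only and 7 under array weights. It was 0 without the 3 arrays low in Xist, and 0 to 3 when single arrays were left out. In ventral tumours it was 0, with 3 for no replicate block, 8 for the compared groups only, 1 under cyclic loess and 8 under array weights. Over all genes the masses had 1496 calls for animal means, 3682 for the compared groups only and 836 without the low-Xist arrays. The ventral tumours had 2009 for no replicate block, 2597 for the compared groups only and 921 under cyclic loess. Array weights also raised the count over all genes from 2794 to 6749 in quadruple against normal gland, from 3134 to 6366 in triple K5Cre, from 1324 to 4226 in masses and from 734 to 5717 in ventral tumours. A paired fit with the 2 animals T627 and T635 as a replicate block called 0 of the 9 genes. It rests on a single pair of arrays from each animal, so the absence of a call says little about these genes. In quadruple against triple K5Cre 0 of the 9 genes were called under any alternative run, and the sign of small differences changed. Under array weights the differences became 0.33 for Cxcl5, 0.12 for Csf3, 0.30 for Il1b, 0.10 for Il6 and 0.31 for Ptgs2. Without the 3 arrays low in Xist they were 0.29 for Cxcl5, 0.32 for Il1b and 0.17 for Ptgs2. With no replicate block Il1b was 0.046 and Il6 0.063, Il1b was 0.0005 for the compared groups only and 0.0092 under cyclic loess, and Ptgs2 was 0.031 with the mean of all probe sets. Leaving out single arrays gave -0.16 to 0.52 for Cxcl2, -0.10 to 0.80 for Cxcl3, -0.74 to 0.084 for Cxcl5, -0.28 to 0.19 for Il1b, -0.37 to 0.57 for Il6 and -0.45 to 0.37 for Ptgs2. The median difference of triple Bcat was 4.67 against normal gland, with a range of 4.27 to 4.99 over the alternatives run. Against quadruple it was 2.80, with a range of 1.95 to 3.05, the lowest under array weights, and 2.22 without triple Bcat array 1. The cause of these changes was not tested.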
